A study of Rattus norvegicus with 8 samples.

Results

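The genes of the proteasome, the protease complex that destroys proteins tagged with ubiquitin, were followed across 3 groups of rat astrocyte RNA-seq libraries. A gene entered the set when its symbol began with Psm, a letter from a to g and a number, when it was not Psmb8 or Psmb9, and when it had 10 or more counts in at least 3 of the 8 libraries. Of the 28546 entries of the count table, 48 met the name rule and 45 were kept. The 3 left out were Psma8, an alpha subunit known from the testis, Psmb11, a beta subunit known from the thymus, and the pseudogene Psme1-ps1, none of which exceeded 18 counts in any library. The 45 members were 7 alpha and 8 beta subunits of the core, 6 ATPases and 3 other subunits of the base, 8 lid subunits, 5 activators or inhibitors, 7 assembly chaperones, and Psmc3ip. Psmc3ip matched by its name alone. It encodes a partner protein with a role in meiotic recombination and is not a proteasome subunit.

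The cells were astrocytes from Sprague Dawley rat pups, and all 3 groups had been exposed for 24 h to 12-273 BM melanoma cells or to their medium. In the control group (n = 2 libraries) the melanoma cells carried the hairpin labelled Scr, a scrambled sequence. In the sh-APP group (n = 3) the hairpin targeted APP, which encodes the precursor of amyloid beta. In the anti-Abeta group (n = 3) the melanoma cells carried the Scr hairpin and an antibody against amyloid beta was used. The labels name a co-culture in one place, melanoma-conditioned medium in another, and elsewhere astrocyte medium put on melanoma cells, without saying which applied. No group without melanoma exposure is among these libraries. Nothing in the labels tells whether replicates were grown as separate cultures, and the p-values therefore cover only library-to-library spread, which may be technical. The study set out to learn what melanoma cells do to astrocytes when amyloid beta is present or is removed.

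The proteasome consists of a barrel-shaped core, called 20S, with a regulatory particle, called 19S, on its ends. Stacked rings of alpha subunits form the gate of the core, and inner rings of beta subunits hold the active sites. In the regulatory particle, the ATPases of the base unfold the substrate and feed it into the core, while the lid and the ubiquitin receptors hold the substrate and remove its ubiquitin chain. Cells are known to raise the subunit genes together through the transcription factor NRF1, the product of Nfe2l1, when proteasome capacity is short. In astrocytes, as in other cells, interferon is known to induce beta subunits and an activator that favour the making of peptides for antigen presentation.

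Total counts ran from 34250464 to 47831595 per library, so counting error is small for the members and the spread between libraries sets the precision. Levels are given as CPM, the usual counts-per-million unit, after scaling by TMM factors (trimmed mean of M-values, which equalise the bulk of the genes between libraries). The TMM factors were 0.901 and 0.923 in control, 1.04 to 1.06 in sh-APP and 0.987 to 1.03 in anti-Abeta. All 10 listed astrocyte markers passed the filter, 7 higher and 1 lower in sh-APP and 4 higher and 3 lower in anti-Abeta. At an adjusted p under 0.05 by edgeR, 53.7% of all genes tested were called in sh-APP and 29.2% in anti-Abeta, each against control. Gfap averaged 2911 CPM in control, 6532 in sh-APP and 3728 in anti-Abeta. Summed, the 10 astrocyte markers stood at 15801 and 16165 CPM in control, 17053 to 19545 in sh-APP and 13928 to 14931 in anti-Abeta. The sum weighs the abundant markers most. Of these Gfap rose in sh-APP, while Gja1 averaged 3682 CPM in control and 2146 in sh-APP. Slc1a3 averaged 5100 and 4651 and was not called. The higher sum in sh-APP is therefore no rise of all 10 markers. Of the 7 microglia markers 5 were too low to test, with Cx3cr1 at 0 in all libraries, and the 7 summed to at most 1.9 CPM. Of 7 markers of the oligodendrocyte lineage 1 was higher (Olig1, averaging 1819 CPM in control) and 1 lower (Pdgfra) in sh-APP. In anti-Abeta 2 were higher and 0 lower. Their sum was 2304 and 2383 CPM in control, 2734, 2888 and 2747 in sh-APP and 2681, 2817 and 3013 in anti-Abeta, lowest in control with no overlap. Of 5 neuron markers 2 were higher in sh-APP (Tubb3 and Rbfox3) and 2 lower (Snap25 at -1.57 and Map2 at -1.24). In anti-Abeta 0 were higher and 2 lower (Snap25 at -0.51 and Map2 at -0.51). The 5 summed to 306 and 335 CPM in control, 131, 140.1 and 139.8 in sh-APP and 205, 266 and 215 in anti-Abeta, lowest in sh-APP with no overlap between groups. Mlana, Tyr, Dct and Tyrp1, which define pigment cells, had at most 29 counts in any library. The other 3 of the 7 listed melanocyte and melanoma markers were detected, Pmel at 20 to 84 counts, Sox10 at 78 to 255 and Mitf at 999 to 1656. Mitf was lower in sh-APP (-0.62 ± 0.15, adjusted p = 0.00311), Sox10 and Pmel did not pass, and the 7 summed to 46.9 and 45.1 CPM in control, 29.7, 30.4 and 31.3 in sh-APP and 35.1, 48.02 and 32.2 in anti-Abeta. Of 8 proliferation markers, 7 were lower and 0 higher in sh-APP. In anti-Abeta 2 of the 8 were lower and 1 higher (Mcm2 at 0.31). The 8 summed to 565 and 601 CPM in control, 245, 331 and 262 in sh-APP and 445, 549.9 and 449 in anti-Abeta. The share of counts on the 13 mitochondrially encoded genes was 6.21 and 5.04% in control, 2.37, 2.503 and 1.96% in sh-APP and 3.62, 3.34 and 3.005% in anti-Abeta. Between libraries of 1 group the counts differed with a chi-square per degree of freedom of 17.5 to 20.9 (1 is counting error alone), but anti-Abeta replicate 2 stood apart at 31.9 and 47.0 from its group mates. The part of these shifts in the results below was not tested. App itself had 573 CPM in control and 612 in sh-APP, but the melanoma cells carried the hairpin and this level checks no label.

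In sh-APP against control the proteasome genes split into a group that rose and a group that fell. Of the 45 members 17 were higher and 14 lower, and 14 did not pass, at an adjusted p under 0.05 (quasi-likelihood test of edgeR, p-values adjusted by Benjamini and Hochberg's method over all 14445 genes tested). Over all genes tested 53.7% were called, 25.8% as higher and 27.9% as lower, against 68.9% of the members, which are abundant genes. With the stricter filter of 1 CPM in 3 libraries the share over all genes was 62.7%. The members' median log2 fold change was -0.012, beside 0.027 for all genes tested, and the members ran from -1.29 (Psmc6) to 0.75 (Psme1). With library totals in place of TMM factors 23 members were higher and 11 lower, because that scaling moves the median of all genes from 0.027 to 0.23, and the members' median from -0.012 to 0.19. Of the 31 calls, 23 (12 higher and 11 lower) held under all 16 alternatives, which included leaving out each library in turn. The plot of fold changes by class shows that each class of subunits other than the beta ring had members called on both sides.

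**Figure D1:**
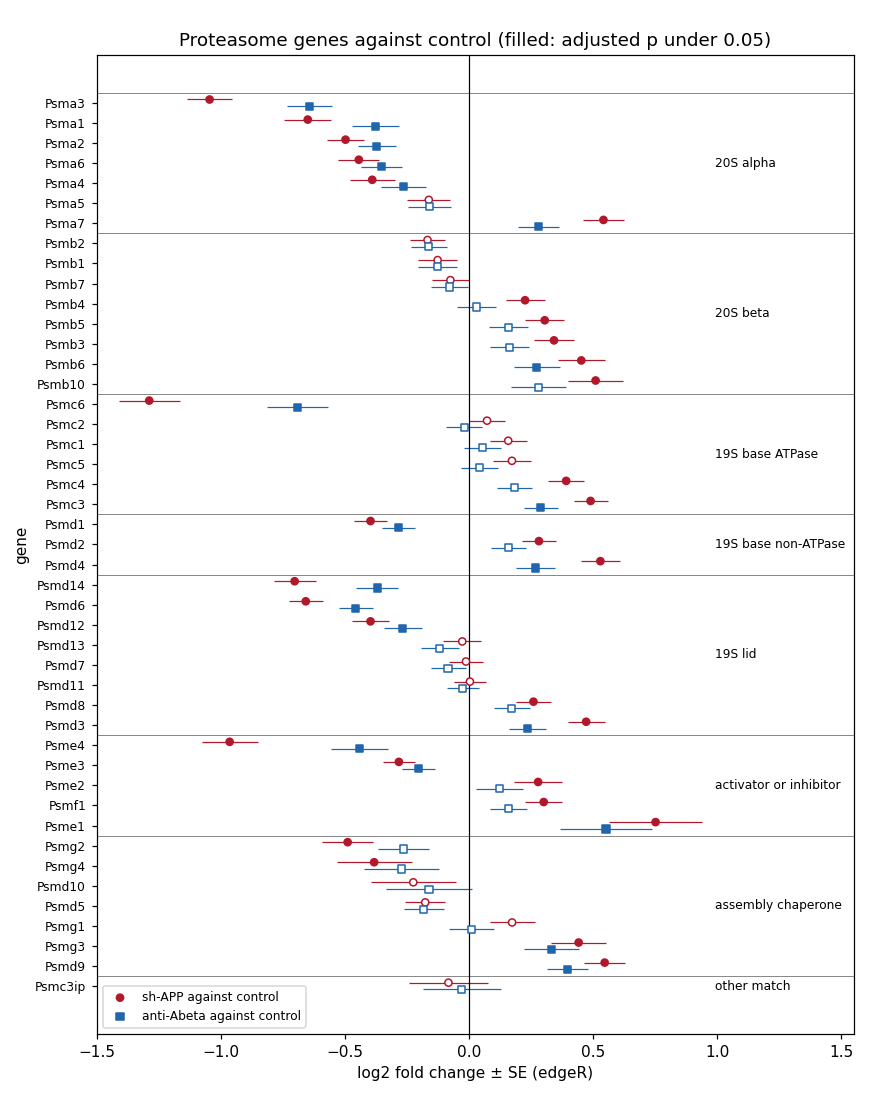
Log2 fold change (x axis, with SE bars) of the 45 members (y axis, grouped by role) in sh-APP against control (circles) and anti-Abeta against control (squares), filled where the adjusted p was under 0.05. Psmc6, Psma3 and Psme4 lie farthest to the left and Psme1 farthest to the right, the beta subunits have no filled mark to the left of 0, and both comparisons use the same 2 control libraries.

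The promoters of 4 members are shown, which were chosen by their fold changes in sh-APP. Psmc6 and Psma3 fell most of the base and the core, Psmd4 rose most of the base, and Psmb6 rose most among Psmb5, Psmb6 and Psmb7. In the core, Psma7 and Psmb10 rose more than Psmb6. Psma7 and Psmd14 had also been chosen, but no single promoter entry matched them. Each sequence is the 250 bases before the annotated start, 5′ to 3′ on the gene's strand, from RefSeq on the rat build GRCr8, which is a later build than the rn6 named for the counts. Their positions are Psmc6 (chr15:21022064-21022313, plus strand), Psma3 (chr6:95219499-95219748, plus strand), Psmb6 (chr10:55737638-55737887, plus strand) and Psmd4 (chr2:185297202-185297451, minus strand). Capitals mark matches to the antioxidant response element TGACNNNGC, which NRF1 and its relatives are known to bind, and to the CCAAT box CCAAT, each searched on both strands.
Psmc6: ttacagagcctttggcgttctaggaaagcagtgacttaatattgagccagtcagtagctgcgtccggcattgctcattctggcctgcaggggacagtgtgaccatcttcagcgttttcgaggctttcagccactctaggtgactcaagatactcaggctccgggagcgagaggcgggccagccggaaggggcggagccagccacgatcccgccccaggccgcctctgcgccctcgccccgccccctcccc
Psma3: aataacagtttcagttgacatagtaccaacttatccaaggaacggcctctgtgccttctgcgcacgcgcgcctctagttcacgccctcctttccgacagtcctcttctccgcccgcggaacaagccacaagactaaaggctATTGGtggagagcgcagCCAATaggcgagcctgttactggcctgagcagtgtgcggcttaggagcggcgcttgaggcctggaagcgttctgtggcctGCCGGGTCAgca
Psmb6: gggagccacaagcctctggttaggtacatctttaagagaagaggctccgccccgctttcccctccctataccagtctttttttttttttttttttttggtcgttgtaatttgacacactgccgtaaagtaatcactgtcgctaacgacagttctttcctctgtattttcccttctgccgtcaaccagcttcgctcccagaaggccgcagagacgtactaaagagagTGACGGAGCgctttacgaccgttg
Psmd4: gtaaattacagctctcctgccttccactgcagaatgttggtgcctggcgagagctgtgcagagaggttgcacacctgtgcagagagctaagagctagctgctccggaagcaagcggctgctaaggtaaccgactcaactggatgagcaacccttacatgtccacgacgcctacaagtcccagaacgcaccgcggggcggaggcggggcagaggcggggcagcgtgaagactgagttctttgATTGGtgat
Psma3 had 1 antioxidant response element and 2 CCAAT boxes, Psmb6 had 1 antioxidant response element, Psmd4 had 1 CCAAT box and Psmc6 had neither. Of the 45 members 41 matched a promoter with a single entry in the table, and Psma7, Psmd6, Psmd12 and Psmd14 did not. The antioxidant response element occurred in 7 of the 41 (17.1%), beside 12.5% of 9514 promoters of tested genes and 10.2% of all 24206. It was in 3 of the 16 matched members that were higher in sh-APP (Psmb5, Psmb6 and Psmd9, with 2 matches in Psmd9), in 3 of the 11 that were lower (Psma3, Psmd1 and Psme4) and in 1 of the 14 not called (Psmb2). The CCAAT box occurred in 20 of the 41 (48.8%), beside 35.4% of promoters of tested genes and 34.4% of all promoters, in 6 of 16 higher, 5 of 11 lower and 9 of 14 not called. The ETS site CCGGAAG was in 12 of the 41 (29.3%, beside 14.4% for tested genes and 8.06% of all), and the GC box GGGCGG was in 29 (70.7%, beside 59.8% for tested genes and 33.6% of all). The GC box was in 10 of the 11 lower and 10 of the 16 higher members. The median GC content of these promoters was 60.0% for the lower, 54.2% for the higher and 51.8% for the uncalled members, beside 60.4% for promoters of tested genes. The letter matches are a description and show no binding.

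The alpha ring was lower in sh-APP at 5 of its 7 genes and higher at 1, beside 27.9% and 25.8% of all genes tested. Psma3 fell most. It stood at 409.9 and 363 CPM in control, 176, 210.4 and 175 in sh-APP, and 237, 256 and 249.7 in anti-Abeta. All 3 sh-APP libraries lay below all 3 anti-Abeta libraries, and these lay below both control libraries. Its log2 fold change in sh-APP was -1.05 ± 0.09 (SE, adjusted p = 5.39e-06, edgeR), from 386 ± 33.1 CPM (SD, n = 2) to 187 ± 20.1 (n = 3). Psma1, Psma2, Psma6 and Psma4 fell by 0.65, 0.50, 0.44 and 0.39 on the log2 scale. In each of them the sh-APP libraries lay below both control libraries, as in 35% of all genes tested. The Psma4 call was lost without control replicate 1 (adjusted p = 0.0769) and with library totals (0.0992), over a range of adjusted p across its 16 alternatives from 0.000254 to 0.0992. Psma5 did not pass (-0.16 ± 0.09, adjusted p = 0.136), though without sh-APP replicate 2 it did (0.0308).

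Psma7 was the alpha subunit that rose. It stood at 147 and 143 CPM in control, 217, 216 and 199 in sh-APP, and 178, 160.2 and 189 in anti-Abeta, with every sh-APP library above every anti-Abeta library and these above control. Its log2 fold change in sh-APP was 0.54 ± 0.08 (SE, adjusted p = 0.000172). Psma3 and Psma7 belong to the same ring. Psma3 counts per 100 Psma7 counts, a ratio that no scaling can alter, were 279 and 255 in control, 81.3, 97.3 and 87.9 in sh-APP and 133, 160.0 and 132 in anti-Abeta. The pair was picked after its values were seen.

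The beta ring had 5 of 8 genes higher in sh-APP and 0 lower with edgeR (DESeq2 gave 5 and 1, limma-voom 5 and 0, and an unadjusted p under 0.05 gave 5 and 1). Over all genes tested edgeR called 25.8% higher and 27.9% lower. Among the catalytic subunits, Psmb5 carries the chymotrypsin-like, Psmb6 the caspase-like and Psmb7 the trypsin-like activity. Psmb5 stood at 178 and 178 CPM in control, 221, 232 and 208 in sh-APP, and 211, 186 and 200.3 in anti-Abeta. Psmb6 stood at 102 and 94.9 CPM in control, 137, 139 and 128 in sh-APP, and 130.3, 105 and 121 in anti-Abeta. For both genes all sh-APP libraries were above both control libraries, as in 35.7% of all genes tested, and the log2 fold changes in sh-APP were 0.31 ± 0.08 (SE, adjusted p = 0.00551) for Psmb5 and 0.45 ± 0.09 (adjusted p = 0.00137) for Psmb6. Psmb7 was at 85.7 and 77.3 CPM in control, 76.7, 79.5 and 75.9 in sh-APP, and 78.3, 77.8 and 75.5 in anti-Abeta. The 3 groups overlapped for Psmb7, and its change in sh-APP did not pass (-0.075 ± 0.07, adjusted p = 0.429).

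Psmb10 takes the place of Psmb7 in the interferon-induced form of the core. It was at 24.6 and 31.6 CPM in control, 39.4, 41.9 and 38.8 in sh-APP, and 33.0, 34.7 and 34.7 in anti-Abeta. The control libraries differed from each other more than the libraries within either other group, yet both lay below all 6 of those, and Psmb10 rose in sh-APP by 0.51 ± 0.11 on the log2 scale (SE, adjusted p = 0.00204). Psmb10 counts per 100 Psmb7 counts were 28.7 and 40.9 in control, 51.4, 52.8 and 51.1 in sh-APP and 42.1, 44.7 and 46.0 in anti-Abeta, again below in both control libraries. Psmb8 and Psmb9, the other inducible beta subunits, were outside the rule. Psmb8 was at 5.50 and 6.43 CPM in control, 7.002, 8.60 and 8.42 in sh-APP, and 5.65, 6.85 and 6.99 in anti-Abeta, and Psmb9 was at 6.17 and 9.99 CPM in control, 10.8, 10.50 and 10.99 in sh-APP, and 8.96, 8.86 and 8.80 in anti-Abeta. Neither passed in sh-APP (log2 fold change 0.42 ± 0.18, adjusted p = 0.059, and 0.41 ± 0.18, adjusted p = 0.0778). Psmb9 passed without control replicate 2 (0.00408), Psmb8 without sh-APP replicate 1 (0.04), and both passed with library totals (0.00838 and 0.0122).

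Psmb3 and Psmb4, beta subunits without an active site, rose in sh-APP by 0.34 ± 0.08 (adjusted p = 0.00293) and 0.23 ± 0.08 (adjusted p = 0.0285). The Psmb4 call was lost without control replicate 1 (0.0713) or 2 (0.0973), without sh-APP replicate 2 (0.0863) or 3 (0.052) and with the replicate block (0.068). Psmb2 had the lowest fold change of the ring, with levels of 234 and 223 CPM in control, 198, 211 and 202 in sh-APP, and 209, 192 and 212 in anti-Abeta. Its sh-APP libraries lay below both control libraries, but at -0.17 ± 0.07 it did not pass (adjusted p = 0.0696), while DESeq2 called it (0.044). Psmb1 did not pass either (-0.13 ± 0.08, adjusted p = 0.202). Summed counts of the 7 alpha genes per 100 counts of the 8 beta genes were 170.3 and 158 in control, 109, 113 and 109 in sh-APP and 121, 135 and 131 in anti-Abeta. The 3 groups did not overlap in this ratio, which was formed after the values were seen and has no test.

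**Figure D2:**
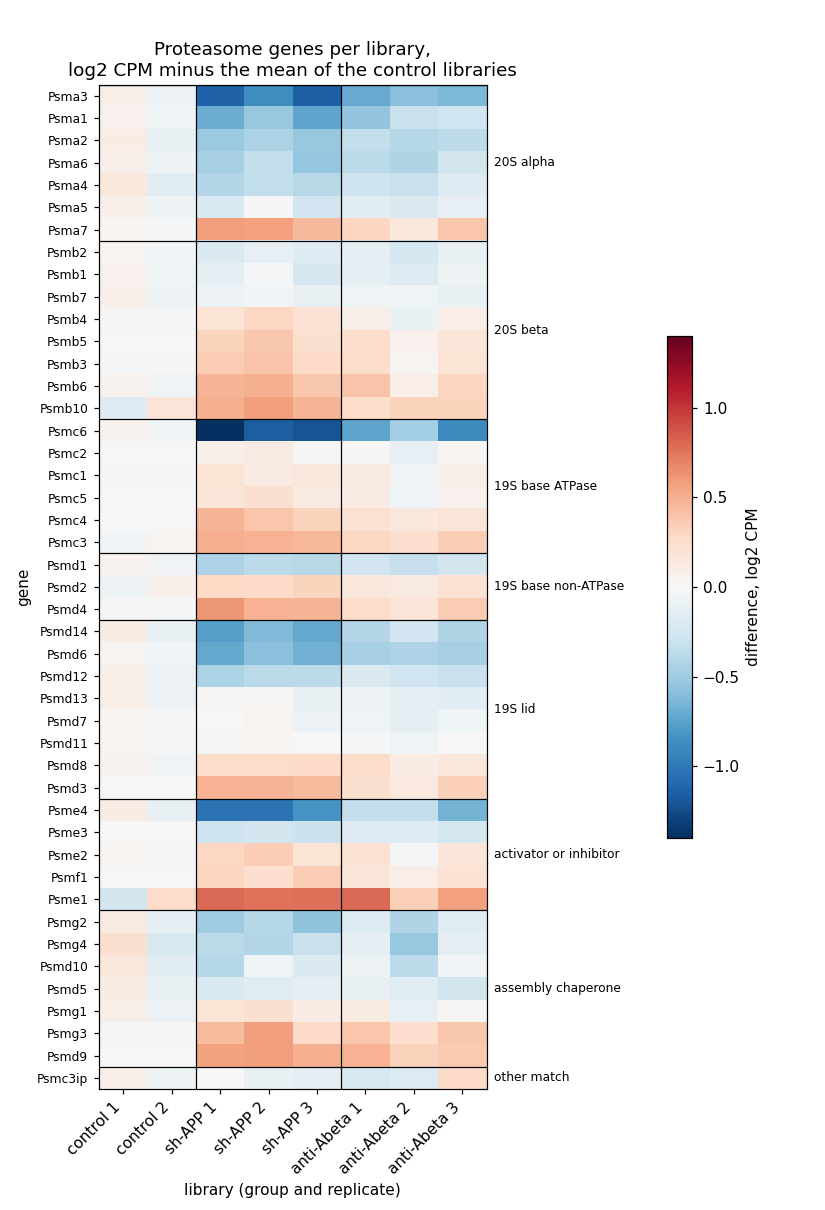
Log2 CPM of each of the 45 members (rows, grouped by role) in each of the 8 libraries (columns), minus the mean of the 2 control libraries, with red for higher and blue for lower. Psmc6, Psma3 and Psme4 are the darkest blue in the 3 sh-APP columns and paler blue in the anti-Abeta columns, and most beta subunits are red in sh-APP.

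In the base, the 6 ATPases form a single ring that pulls the substrate into the core. Psmc6 had the largest fall of all members, at 309 and 290.4 CPM in control, 104, 134 and 129 in sh-APP, and 179, 215 and 162 in anti-Abeta. The 3 groups did not overlap, with sh-APP lowest. Its log2 fold change in sh-APP was -1.29 ± 0.12 (SE, adjusted p = 7.67e-06), from 299.8 ± 13.3 CPM (SD, n = 2) to 122.7 ± 16.1 (n = 3). Psmc6 overlaps Styx and another gene on the later build, so its counts may include or miss reads of those. Psmc3 rose most of the ring and stood at 238 and 251 CPM in control, 348, 344 and 339 in sh-APP, and 299.8, 288 and 309.6 in anti-Abeta. Again the groups did not overlap, here with sh-APP highest, at 0.49 ± 0.07 (adjusted p = 8.41e-05). Psmc4 rose by 0.39 ± 0.07 (adjusted p = 0.000591), while Psmc1, Psmc2 and Psmc5 did not pass (log2 fold changes 0.16, 0.073 and 0.17) but did with library totals (0.00165, 0.00968 and 0.00137). Psmc1 and Psmc5 also passed without anti-Abeta replicate 2 (0.0405 and 0.0312). Psmc6 counts per 100 Psmc4 counts were 179.9 and 169 in control, 43.8, 59.8 and 60.5 in sh-APP and 89.5, 113 and 82.9 in anti-Abeta, for a pair picked after its values were seen.

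The other base subunits are scaffolds and ubiquitin receptors. Psmd1, the scaffold of the base, stood at 562 and 526 CPM in control, 402, 423 and 415 in sh-APP, and 452, 434 and 456 in anti-Abeta. All sh-APP libraries were below all others and it fell by 0.40 ± 0.07 on the log2 scale (SE, adjusted p = 0.000325). Psmd1 overlaps the serotonin receptor gene Htr2b. Psmd4, a ubiquitin receptor, stood at 106 and 103 CPM in control, 159.9, 146 and 146 in sh-APP, and 125, 118 and 134 in anti-Abeta. Every sh-APP library was above every anti-Abeta library and these above control, and the fold change in sh-APP was 0.53 ± 0.08 (adjusted p = 0.000139). Psmd2, a scaffold that binds shuttle proteins, rose by 0.28 ± 0.07 (adjusted p = 0.00435), a call lost without control replicate 1 (0.057).

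In the lid, 2 of 8 genes were higher and 3 lower in sh-APP. This was 62.5% called, beside 53.7% of all genes tested and 62.7% with the filter of 1 CPM in 3 libraries. Psmd14, the deubiquitinase that cuts the ubiquitin chain from the substrate, stood at 403 and 349 CPM in control, 219, 245 and 229 in sh-APP, and 282, 311 and 281 in anti-Abeta. The groups did not overlap and the fold change in sh-APP was -0.70 ± 0.08 (SE, adjusted p = 3.02e-05). Psmd14 overlaps an uncharacterised gene. Psmd6, a structural lid subunit, was at 289.8 and 274 CPM in control, 171, 188 and 177 in sh-APP, and 204, 209 and 204 in anti-Abeta. It also had sh-APP lowest and control highest with no overlap, and fell by 0.66 ± 0.07 (adjusted p = 1.29e-05). Psmd12 fell by 0.40 ± 0.08 (adjusted p = 0.00079). Psmd3, another structural subunit, went the other way, at 158 and 159 CPM in control, 223, 221 and 216 in sh-APP, and 186, 175 and 200.5 in anti-Abeta. Its sh-APP libraries were highest and its control libraries lowest, with a fold change of 0.47 ± 0.07 (adjusted p = 0.000209). Psmd8 rose by 0.26 ± 0.07 (adjusted p = 0.00873), a call lost without control replicate 2 (0.0577). Psmd7, Psmd11 and Psmd13 did not pass, with fold changes of -0.012, 0.0037 and -0.027, although Psmd7 and Psmd11 did with library totals (adjusted p = 0.0476 and 0.0242).

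**Figure D3:**
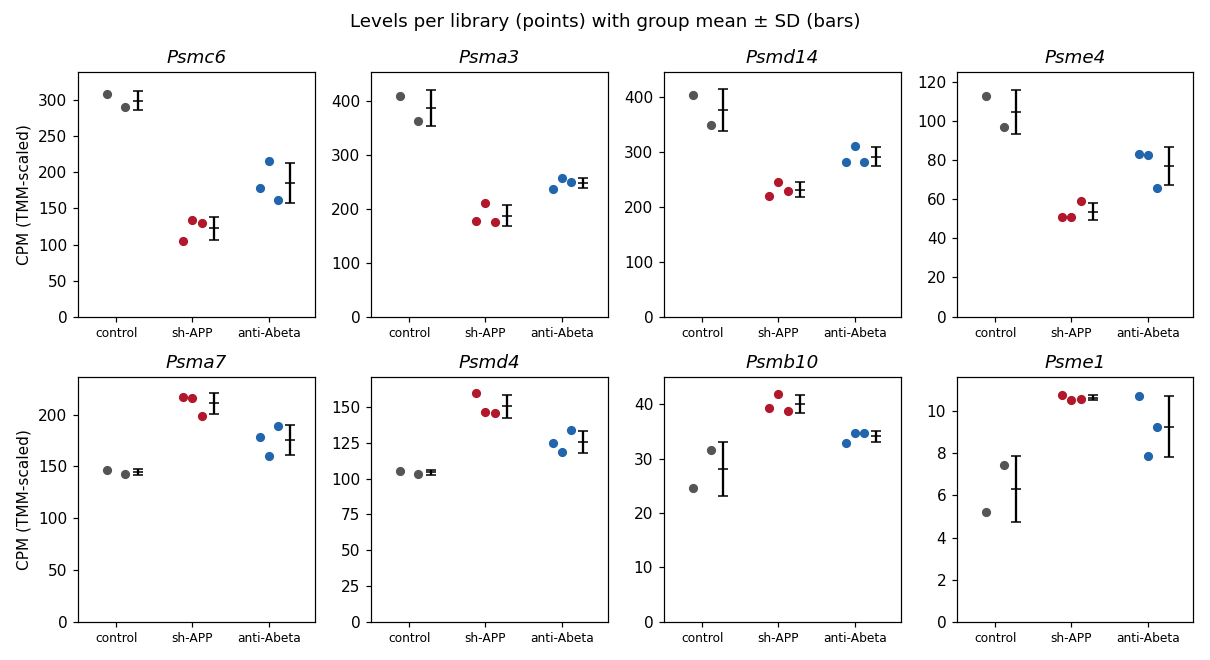
CPM (y axis, from 0) of 8 members by group (x axis), with 1 point per library and the mean ± SD beside the points (n = 2, 3 and 3). In the upper row control is highest and sh-APP lowest for Psmc6, Psma3, Psmd14 and Psme4, and in the lower row control is lowest for Psma7, Psmd4, Psmb10 and Psme1.

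The caps that can replace the 19S particle went in both directions. Psme1 and Psme2 encode the alpha and beta subunits of the interferon-induced activator ring. Psme1 was at 5.20 and 7.43 CPM in control, 10.8, 10.55 and 10.6 in sh-APP, and 10.7, 7.85 and 9.23 in anti-Abeta. All sh-APP libraries were above both control libraries, and it rose by 0.75 ± 0.19 on the log2 scale (SE, adjusted p = 0.00448), the largest rise of all members. The call was lost without control replicate 1 (0.0658), Psme1 overlaps Emc9, and it has named pseudogene copies, so its level is less certain. Psme2 stood at 39.6 and 38.2 CPM in control, 47.5, 49.5 and 44.4 in sh-APP, and 45.1, 38.4 and 43.6 in anti-Abeta. It rose by 0.28 ± 0.10 (adjusted p = 0.0272), a call lost without control replicate 1 (0.0702) or 2 (0.104) and without sh-APP replicate 1 (0.0593) or 2 (0.0831).

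Psme3 encodes the nuclear activator ring and stood at 190.0 and 190.5 CPM in control, 156, 159 and 154 in sh-APP, and 168, 167 and 161 in anti-Abeta. Its 3 groups did not overlap, and it fell in sh-APP by 0.28 ± 0.06 (adjusted p = 0.00277), a call lost with library totals (0.376, fold change -0.078). Psme4, the large single-chain activator linked to chromatin, was at 112 and 96.7 CPM in control, 51.0, 51.0 and 58.8 in sh-APP, and 82.9, 82.5 and 65.7 in anti-Abeta. Control was highest and sh-APP lowest with no overlap, and the fold change in sh-APP was -0.96 ± 0.11 (adjusted p = 2.64e-05). Psmf1, named as an inhibitor of the core, stood at 80.3 and 79.5 CPM in control, 98.7, 94.1 and 103 in sh-APP, and 90.5, 85.2 and 91.9 in anti-Abeta. It rose by 0.30 ± 0.07 (adjusted p = 0.00437), with every sh-APP library above every other library.

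Of the 7 assembly chaperones 2 were higher and 2 lower in sh-APP. This was 57.1% called, near the 53.7% of all genes tested. Psmd9, which helps to assemble the base, stood at 43.6 and 43.9 CPM in control, 64.6, 65.4 and 61.7 in sh-APP, and 61.4, 54.6 and 56.5 in anti-Abeta. All sh-APP libraries were highest, and it rose by 0.55 ± 0.08 (SE, adjusted p = 0.000147). Psmg3, a chaperone of the alpha ring, rose by 0.44 ± 0.11 (adjusted p = 0.00472). Its partner Psmg4 was at 33.0 and 24.1 CPM in control, 21.7, 21.2 and 22.8 in sh-APP, and 25.8, 19.6 and 25.6 in anti-Abeta. It was called lower at -0.38 ± 0.15 (adjusted p = 0.0487), but the call was lost without control replicate 1 (0.577) or any 1 of the sh-APP replicates (0.0907, 0.107 and 0.0712) or anti-Abeta replicate 1 (0.0516) or 3 (0.0522), and with limma-voom (0.0613) and library totals (0.346). Psmg2, which pairs with Psmg1 on the same ring, stood at 82.1 and 68.9 CPM in control, 53.1, 57.2 and 51.1 in sh-APP, and 65.7, 56.0 and 66.8 in anti-Abeta. It fell by 0.49 ± 0.10 (adjusted p = 0.00157), with sh-APP below both control libraries. Psmg1 (0.17), Psmd5 (-0.18) and Psmd10 (-0.22) did not pass, apart from Psmd5 without control replicate 2 (0.0348) and Psmg1 with library totals (0.00359). Psmc3ip, the match that is no subunit, was at -0.083 (adjusted p = 0.688).

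Summed over the 45 members, the level was 8592 and 8109 CPM in control, 7645, 7941 and 7521 in sh-APP and 7762, 7484 and 7808 in anti-Abeta. By CPM both control libraries were highest. As a share of all counts, with no composition factor, the members held 0.774 and 0.749% in control, 0.811, 0.828 and 0.788% in sh-APP and 0.794, 0.739 and 0.801% in anti-Abeta, so the direction of the sum in sh-APP turns with the scaling. Ratios between members within a library do not depend on it. In a bulk library, fewer cells of a type and less RNA per cell cannot be told apart. Of the 45 members, 19 have in RefSeq's annotation named pseudogene or like copies, 8 of the 17 higher, 9 of the 14 lower and 2 of the 14 not called in sh-APP, and 13 members overlap another gene. Reads shared with a copy or a neighbour may have been dropped or misplaced, so the levels of these members are less certain. Psma3, Psma7, Psmc6, Psmc4 and Psmb7, which enter the ratios between single members, are among those with copies.

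**Figure D4:**
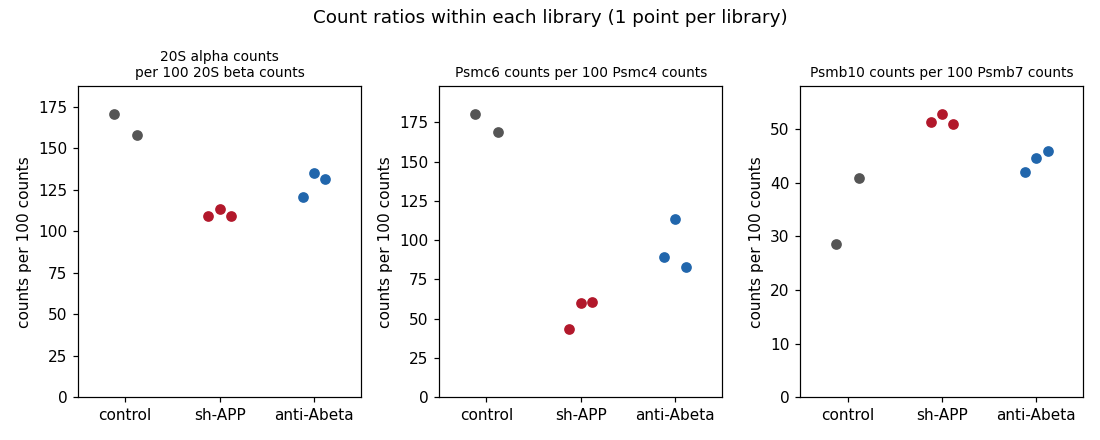
Count ratios within each library (y axis, counts per 100 counts, from 0) by group (x axis), 1 point per library, for all alpha against all beta genes, Psmc6 against Psmc4, and Psmb10 against Psmb7. The sh-APP points lie lowest in the first and middle panels and highest in the last, with no overlap with the control points.

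In anti-Abeta against control, 8 of the 45 members were higher and 12 lower, and 25 did not pass. Over all genes tested 29.2% were called (12.7% higher and 16.6% lower), against 44.4% of the members. With the filter of 1 CPM in 3 libraries the share over all genes was 36.2%. All 20 called members were called the same way in sh-APP against control, but both comparisons use the same control libraries, so this is no independent support. The members' median was -0.029, beside 0.027 for all genes. Without control replicate 1, 0 members were higher and 2 lower by edgeR (Psma3 and Psmd6), while 2.92% of all genes tested were then called. Without control replicate 2 the counts were 4 and 12, without anti-Abeta replicate 1 they were 2 and 10, without anti-Abeta replicate 3 they were 2 and 9, and with sh-APP replicate 1 left out, 5 were higher and 10 lower. Without anti-Abeta replicate 2, which stood apart, they were 9 and 11. With library totals 15 members were higher and 6 lower, as the median of all genes moves to 0.18 and that of the members to 0.12. With the replicate number as a block 3 were higher and 9 lower.

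Psma3, with the levels given above, fell by 0.64 ± 0.09 on the log2 scale in anti-Abeta (SE, adjusted p = 0.00226, edgeR), and Psmd6 by 0.46 ± 0.07 (adjusted p = 0.00226). For both, every anti-Abeta library lay below both control libraries, as in 27% of all genes tested, and these 2 calls held under all 16 alternatives. Psmc6 had the largest size of fold change, -0.69 ± 0.12 (adjusted p = 0.00332). Psma1, Psma2 and Psma6 had fold changes of -0.38, -0.37 and -0.35, Psmd14 of -0.37, Psmd1 of -0.28 and Psme4 of -0.44. These 7 calls were lost without control replicate 1 (adjusted p of 0.0552 for Psmc6 and 0.133, 0.0787, 0.109, 0.121, 0.0972 and 0.162 for the others in that order), and those of Psma1, Psma6 and Psmd1 also with library totals (0.0681, 0.0821 and 0.181). No other alternative ended any of the 7. Psma4 (-0.26, adjusted p = 0.0458), Psmd12 (-0.27, 0.0221) and Psme3 (-0.20, 0.0352) were called lower and lost their calls under 11, 4 and 10 of the 16 alternatives. Without control replicate 1 their adjusted p was 0.456, 0.196 and 0.135, and without anti-Abeta replicate 3 it was 0.0553, 0.0699 and 0.1.

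The 8 members called higher in anti-Abeta were Psmd9 (0.40 ± 0.08, adjusted p = 0.00594), Psmc3 (0.29 ± 0.07, 0.00971), Psme1 (0.55 ± 0.19, 0.0432), Psmg3 (0.33), Psma7 (0.28), Psmb6 (0.27), Psmd4 (0.27) and Psmd3 (0.24). In each of them all 3 anti-Abeta libraries were above both control libraries, as in 27.9% of all genes tested. Without control replicate 1 all 8 calls were lost, with adjusted p of 0.0692 for Psmd9 and 0.113 for Psmc3. The adjusted p was then 0.366 for Psme1, 0.209 for Psmg3, 0.126 for Psma7, 0.13 for Psmb6, 0.136 for Psmd4 and 0.182 for Psmd3. For Psmd9 and Psmc3 this was the 1 alternative that ended the call, while the other 6 were lost under 5 to 11 of the 16. With library totals 4 of the 8 beta subunits were called higher in anti-Abeta, beside 1 with TMM factors. Library totals called 34.7% of all genes tested there. Among the catalytic subunits Psmb5 (0.16 ± 0.08, adjusted p = 0.147), Psmb7 (-0.078 ± 0.08, 0.467) and the inducible Psmb10 (0.28 ± 0.11, 0.078) did not pass with TMM factors. Psmb10 passed without control replicate 2 (0.0272), the library with the higher Psmb10 level. Psme2 (0.12), Psmf1 (0.16) and Psmg2 (-0.27) did not pass, though Psmg2 did without control replicate 2 (0.0485).

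The direct comparison of sh-APP with anti-Abeta tests whether the arms differ and does not use the control values, apart from their share in the estimate of the spread. In it 5 members were higher in sh-APP and 6 lower, and 34 did not pass. Of all genes tested 26.1% were called (10.1% higher and 16% lower), against 24.4% of the members. With the filter of 1 CPM in 3 libraries the share over all genes was 31.8%. The 6 lower in sh-APP were Psmc6 (-0.60 ± 0.11, adjusted p = 0.00304), Psme4 (-0.52 ± 0.10, 0.0039), Psma3 (-0.40 ± 0.08, 0.00478), Psmd14 (-0.33 ± 0.08, 0.0081), Psma1 (-0.27, 0.0342) and Psmd6 (-0.20, 0.0325). For the first 4 the sh-APP libraries all lay below the anti-Abeta libraries, as in 22.1% of all genes tested, and these 4 calls held under all 16 alternatives. The calls of Psma1 and Psmd6 were lost when single libraries were left out, Psma1 without 6 of the 8 (adjusted p from 0.0626 without control replicate 1 to 0.128 without sh-APP replicate 3) and Psmd6 without 7 (from 0.0561 without control replicate 1 to 0.139 without sh-APP replicate 1). With library totals both were lost (0.0607 and 0.108), as was Psma1 in the fit of the 2 groups alone (0.0508) and Psmd6 with no filter on low counts (0.0508) and with the replicate block (0.0602). Over all members library totals gave 7 higher and 4 lower, and the replicate block 4 and 5.

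The 5 members higher in sh-APP than in anti-Abeta were Psmd4 (0.26 ± 0.07, adjusted p = 0.0166), Psma7 (0.26 ± 0.07, 0.0215), Psmd3 (0.23 ± 0.07, 0.0215), Psmc4 (0.21 ± 0.06, 0.0299) and Psmc3 (0.20 ± 0.06, 0.0287). In all 5 the sh-APP libraries lay above the anti-Abeta libraries, as in 19.2% of all genes tested. Without sh-APP replicate 1 all 5 calls were lost (0.0799, 0.081, 0.0756, 0.138 and 0.101), and without sh-APP replicate 2 the 1 member called higher was Psmd4. The Psmc3 call was also lost with the replicate block (0.056). Without sh-APP replicate 3 the count was 3 and without anti-Abeta replicate 1 it was 2. Of the 8 beta subunits 0 were called in either direction by edgeR (DESeq2 gave 1 higher and 0 lower, limma-voom 0 and 0, and an unadjusted p under 0.05 gave 4 and 0). For Psmb5, Psmb6 and Psmb10 the differences were 0.15 ± 0.07, 0.18 ± 0.08 and 0.23 ± 0.10.

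Genes outside the name rule that belong to the proteasome or work with it were taken from lists made by their roles. The counts by class above cover only members of the rule. Of 16 genes of assembly, regulation and shuttling, 13 could be tested, and 3 were higher and 10 lower in sh-APP, with a median log2 fold change of -0.71, where 53.7% of all genes tested were called. Paaf1 and Ecpas were not matched, and Pomp, a chaperone of the core, had 2 to 11 counts per library and was not tested. Zfand5, a ubiquitin-binding activator of the proteasome, stood at 1071 and 924 CPM in control, 339.9, 362 and 352 in sh-APP, and 614, 688 and 571 in anti-Abeta. The deubiquitinases of the 19S particle fell with it: Usp14 was at 736 and 718 CPM in control, 269, 339.9 and 291 in sh-APP, and 410.2, 570.1 and 445 in anti-Abeta. Uchl5 was at 185 and 172 CPM in control, 49.9, 72.1 and 63.7 in sh-APP, and 109, 139 and 97.9 in anti-Abeta. All 3 genes, named as the largest falls of the list, had sh-APP below anti-Abeta and anti-Abeta below control. Over all genes tested, 22.1% lay lower without overlap in the former comparison and 27% in the latter. The 3 fold changes in sh-APP against control were -1.51 ± 0.09 (adjusted p = 2.60e-06), -1.28 ± 0.13 (9.71e-06) and -1.53 ± 0.15 (9.94e-06). Among those that rose were Adrm1, a ubiquitin receptor that docks Uchl5 (0.56 ± 0.08), and the shuttle protein Ubqln4 (0.44 ± 0.08). In anti-Abeta, where 29.2% of all genes were called, 3 of the 13 were higher and 8 lower, with Zfand5 at -0.68 ± 0.09 (adjusted p = 0.00226), Usp14 at -0.61 and Uchl5 at -0.63. Without control replicate 1 the calls of Usp14 (0.0712) and Uchl5 (0.108) in anti-Abeta were lost. In sh-APP against anti-Abeta 1 of the 13 was higher and 8 were lower, beside 26.1% of all genes called.

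Genes of ubiquitin and its activating enzymes went in both directions. Ubb, a polyubiquitin gene, stood at 1108 and 1205 CPM in control, 1649, 1699.6 and 1579 in sh-APP, and 1495, 1434 and 1565 in anti-Abeta, and rose in sh-APP by 0.51 ± 0.07 (SE, adjusted p = 0.000122). Every sh-APP library was above every anti-Abeta library, and these were above control. Rps27a, which encodes ubiquitin fused to a ribosomal protein, had -0.53 ± 0.14 (adjusted p = 0.00631), a call lost without control replicate 1 (0.166) and with library totals (0.0589). Of the activating enzymes, Uba1 was called higher at 0.29 ± 0.07, which did not hold without control replicate 1 (0.0593), and Uba6 had -1.35 ± 0.13 (adjusted p = 8.62e-06). In anti-Abeta Ubb was at 0.37, and the calls of these 4 genes there were lost without control replicate 1 (adjusted p of 0.0777 for Ubb, 0.341 for Rps27a, 0.213 for Uba1 and 0.138 for Uba6).

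Of the genes through which NRF1 drives proteasome transcription, 10 of 11 could be tested, and 5 were higher and 2 lower in sh-APP, beside 53.7% of all genes called. Nfe2l1, which encodes NRF1, stood at 53.7 and 56.8 CPM in control, 74.7, 71.1 and 77.3 in sh-APP, and 61.7, 63.7 and 70.9 in anti-Abeta. Its sh-APP libraries were above all others and it rose by 0.43 ± 0.09 (SE, adjusted p = 0.00105). The partner genes Mafk and Maff rose by 0.53 ± 0.11 and 0.63 ± 0.21, the latter lost without control replicate 1 (0.122) or sh-APP replicate 1 (0.0568). Ngly1, whose enzyme strips sugars from NRF1 to activate it, stood at 116 and 101 CPM in control, 64.4, 65.8 and 70.6 in sh-APP, and 78.2, 90.3 and 91.7 in anti-Abeta. It had a fold change of -0.69 ± 0.09 (adjusted p = 6.27e-05). Nfe2l2, which encodes the related factor NRF2, had -0.41 ± 0.11 (adjusted p = 0.00729), lost without control replicate 2 (0.0601) and with library totals (0.096). In anti-Abeta 2 of these 10 genes were higher (Nfe2l1 and Mafk) and 1 lower (Ngly1), a share near the 29.2% of all genes called there. The Nfe2l1 call was lost under 13 of the 16 alternatives, limma-voom, the replicate block and each left-out library among them, that of Mafk under 6 and that of Ngly1 under 3. Without control replicate 1 their adjusted p was 0.294, 0.208 and 0.241.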

How the data were processed

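RNA-seq was measured in 8 libraries, and the authors deposited 1 table of raw counts per gene symbol, checked here to be whole numbers with totals that differ between libraries. The submitters' processing notes name the build rn6, STAR 2.6.0a and HTSeq 0.11.1, and also Trimmomatic 0.36, FastQC 0.11.7, DESeq2 1.24.0 and SAMtools 1.9, without roles. For annotation, strand setting and the handling of reads with several positions, nothing is stated.

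With edgeR 4.0.16 (in R 4.3.3) the 8 libraries were fitted together by group, which leaves 5 residual degrees of freedom, after filterByExpr (minimum count 10, minimum total 15; 14445 genes kept, all 45 members among them) and TMM scaling. Each of 3 comparisons used the robust quasi-likelihood test with Benjamini-Hochberg adjustment over all genes tested and a threshold of 0.05. Standard errors (SE) come from the F statistic, as the log2 value over the root of F. The test was checked on simulated data. The members and lists were chosen with earlier results of these data known. Values per library are given for the catalytic subunits, Psmb10, the activators, Psmf1, Psmd4, Psmd14 and the highest and lowest member of each class against control. Of the other lists, up to 3 called genes in each direction with the largest fold changes are named, plus Nfe2l1, Pomp, Adrm1 and Ubb. Some genes of these lists are not reported here.

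Alternatives were DESeq2 1.42.0, limma-voom (limma 3.58.1), DESeq2-type size factors, library totals, no filter, a filter of 1 CPM in 3 libraries, a replicate block, fits of 2 groups alone, and each library left out. A RefSeq table of GRCr8 gave overlaps, copies and promoters.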

Additional observations from a re-analysis of the deposited data

How the results depend on the processing

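In sh-APP against control the counts of members stayed within 1.5 times of 17 higher and 14 lower under every alternative, and with single libraries left out they ran from 13 to 19 higher and 12 to 15 lower. In anti-Abeta against control the leave-one-out range was 0 to 9 higher and 2 to 12 lower. There the count of higher members was 5 with limma-voom and 5 with the 2 groups alone, 3 with the replicate block, and 15 with library totals, which gave 6 lower. The cause was not tested. In sh-APP against anti-Abeta the range was 0 to 6 higher and 4 to 6 lower. Libraries with the same replicate number had small correlations of deviations (from -0.0106 to 0.105), and the numbers were not taken to pair them. The highest of all pairs were sh-APP with anti-Abeta at replicate 1 (0.105) and at replicate 2 (0.0984). Their crossed pairs were lowest (-0.108 and -0.101). But sh-APP replicate 3 correlated better with anti-Abeta replicate 2 (0.0150) than with replicate 3 (-0.0056). The block moved the calls of all genes tested in sh-APP against control from 3723 higher and 4027 lower to 3463 and 3865.

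No called member reversed its direction under any alternative. Some uncalled members changed sign. With library totals the sh-APP fold changes were 0.043 for Psma5, 0.078 for Psmb1, 0.037 for Psmb2, 0.13 for Psmb7, 0.12 for Psmc3ip, 0.18 for Psmd13, 0.029 for Psmd5 and 0.19 for Psmd7, the last with adjusted p = 0.0476 (edgeR), and Psmb7 was at 0.073 in anti-Abeta. Psmd11 was at -0.0099 with DESeq2 and -0.0099 with size factors of its kind, and Psmd13 at 0.0012 with the replicate block. In sh-APP against anti-Abeta Psmb2 was at 0.047 with library totals and 0.0089 with the 2 groups alone. With a library left out the ranges in sh-APP were -0.13 to 0.0084 for Psmb7, -0.14 to 0.0012 for Psmc3ip, -0.092 to 0.066 for Psmd13, -0.038 to 0.026 for Psmd7 and -0.0098 to 0.038 for Psmd11. They were -0.032 to 0.023 for Psmb2 and -0.016 to 0.031 for Psmb7 in sh-APP against anti-Abeta. For Psmb9, which is outside the rule, the range was -0.18 to 0.52 in anti-Abeta. At these depths the spread between libraries limits the precision more than counting does, and control has 2 libraries.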
